A study of Homo sapiens with 6 samples.

Results

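The 10 keratin genes KRT7, KRT8, KRT18, KRT19, KRT80, KRT81, KRT86, KRT15, KRT17, and KRT10 were examined in NSCLC cell lines after MALAT1 knockdown. They were taken by gene symbol from a table of 46427 genes and stand for keratins of simple epithelia (KRT7, KRT8, KRT18, KRT19), of hair (KRT81, KRT86), of basal and stressed epithelium (KRT15, KRT17), and of differentiating epithelium (KRT10, KRT80). Total RNA was sequenced from 6 cultures, a control and a si-MALAT1 culture of each of H460, H1299, and A549. All 3 are established human lung tumor lines, H460 and H1299 from large cell carcinoma and A549 from adenocarcinoma. In the si-MALAT1 group the siRNA against the lncRNA MALAT1 was introduced by transient transfection, and the controls are labelled as not treated, while the study's methods describe untreated cells as well as cells given a control siRNA, so which kind was sequenced is not clear. The time between transfection and RNA isolation was not given in the sources used here, and the labels give no other treatment.

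Keratins are the intermediate filament proteins of epithelial cells. Each filament is built from pairs of one type I chain (here KRT10, KRT15, KRT17, KRT18, KRT19) and one type II chain (here KRT7, KRT8, KRT80, KRT81, KRT86), and a chain without a partner is usually degraded. KRT8 and KRT18 form the basic pair of simple epithelia, to which glandular cells add KRT7 and KRT19, and pathologists use these chains to recognize carcinomas of the lung. KRT81 and KRT86 normally harden the hair shaft, KRT15 marks basal keratinocytes, KRT17 is induced in injured skin, KRT10 is made as epidermal cells leave the basal layer, and KRT80 is a type II chain found near desmosomes in many epithelia.

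The type II genes and KRT18 lie in one cluster on chromosome 12, and the other type I genes lie on chromosome 17 (GRCh38). KRT80 occupies chr12:52168996-52192014 on the minus strand, KRT7 chr12:52233243-52252667 on the plus strand, and KRT86 chr12:52270507-52309163 on the plus strand, with KRT81 (chr12:52285913-52291534, minus strand) between the exons of KRT86. KRT8 (chr12:52897191-52949860, minus strand) and KRT18 (chr12:52948871-52952906, plus strand) stand head to head, and a long KRT8 transcript shares 135 exon bases with KRT18 on the opposite strand.

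The read counts summed over all genes came to 42506818 to 68515992 per library. MALAT1 was lower by log2 fold changes of -2.32 (H460), -2.96 (H1299), and -2.84 (A549), so each si-MALAT1 library matched its label. Of epithelial markers, CDH1 (E-cadherin) was at 27.8 and 39.4 TPM in A549 and at most 0.0468 TPM in the other lines. CLDN7 was instead highest in H460, at 3.25 and 3.87 TPM, against 0.577 and 1.27 TPM in A549 and at most 0.178 TPM in H1299. EPCAM ranged from 0.252 to 8.04 TPM, and VIM (vimentin), the intermediate filament of mesenchymal cells, from 446 to 2120 TPM. Together with the other cadherin CDH2, the epithelial markers CDH1, EPCAM, and CLDN7 summed to 4.44 to 55.0 TPM in the controls. After si-MALAT1 the sum was 5.58 to 79.5 TPM. CDH2 alone was at 15.72 and 23.55 TPM in H1299, 22.97 and 30.88 TPM in A549, and 0.817 and 0.895 TPM in H460. Nearly all of the H1299 sum was CDH2, so the sum does not rank the lines by epithelial markers. Of 9 markers of other cell types, PTPRC, CD3E, and CDH5 had 0 reads in all 6 libraries, and the 9 summed to 0.187 to 19.98 TPM in the controls and 0.672 to 18.3 TPM after si-MALAT1, in H460 and A549 mostly from COL3A1.

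The lines differed in the levels of most of these keratin transcripts, while KRT8 and KRT18 were abundant in all 3. On the TPM scale, which accounts for transcript length, the 10 genes summed to 1259 and 903 TPM in the H460 control and si-MALAT1 libraries, 495 and 471 TPM in H1299, and 5918 and 2626 TPM in A549. These sums were 99.8% to 99.9% of the TPM of all protein-coding keratin genes in each library. They amounted to 0.592% of all TPM in the A549 control and 0.0495% in the H1299 control.

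KRT18, the type I partner of KRT8, was at 363 TPM in the H460 control and 236 TPM after si-MALAT1, at 342 and 335 TPM in the H1299 libraries, and at 2918 and 1235 TPM in those of A549. KRT8 was at 309 and 243 TPM in H460, 138 and 123 TPM in H1299, and 1778 and 793 TPM in A549. For both genes every A549 library was above every library of the other lines. Together they supplied 96.9% of the keratin TPM in the H1299 control, 79.3% in the A549 control, and 53.3% in the H460 control.

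KRT7, a type II chain of glandular and ductal cells, was at 781 and 376 TPM in A549, 24.2 and 17.4 TPM in H460, and 0.987 and 1.51 TPM in H1299. The 3 lines did not overlap, and the mean of A549 was 27.8 times that of H460. KRT19, the smallest type I chain, whose fragments serve as a serum tumor marker, showed the reverse order of A549 and H460. It was at 550 and 399 TPM in H460, where it ranked first of the 10, and at 0.256 and 0.230 TPM in H1299 and 0.888 and 2.23 TPM in A549.

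The hair keratin KRT81 was the fourth keratin of A549 at 423 and 206 TPM, against 2.05 and 1.53 TPM in H460. In H1299 it had 0 reads in the control, where a count of 0 allows up to 3 reads, and 8 reads after si-MALAT1. Its neighbour KRT86 followed the same order of lines at far lower levels, 3.81 and 1.37 TPM in A549, 0.167 and 0.136 TPM in H460, and 0.0261 and 0.0497 TPM in H1299.

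KRT15 was highest in H1299, at 9.32 and 8.38 TPM, against 1.83 and 0.670 TPM in H460 and 0.496 and 1.72 TPM in A549. KRT10 was at 5.51 and 3.71 TPM in H460, 5.46 and 6.83 TPM in A549, and 0.626 and 1.38 TPM in H1299. For KRT10 the H460 and A549 ranges met and both lay above H1299. KRT17 had 5 reads in the H460 si-MALAT1 library and 0 in the other 5, so it could be compared nowhere.

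KRT80 was low in every library. It was at 3.33 TPM in the H460 control and 2.096 TPM after si-MALAT1, at 4.03 and 2.67 TPM in H1299, and at 7.02 and 3.04 TPM in A549. The ranges of the 3 lines overlapped, and the gene made up 0.116% to 0.814% of the keratin TPM of a library.

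**Figure D1:**
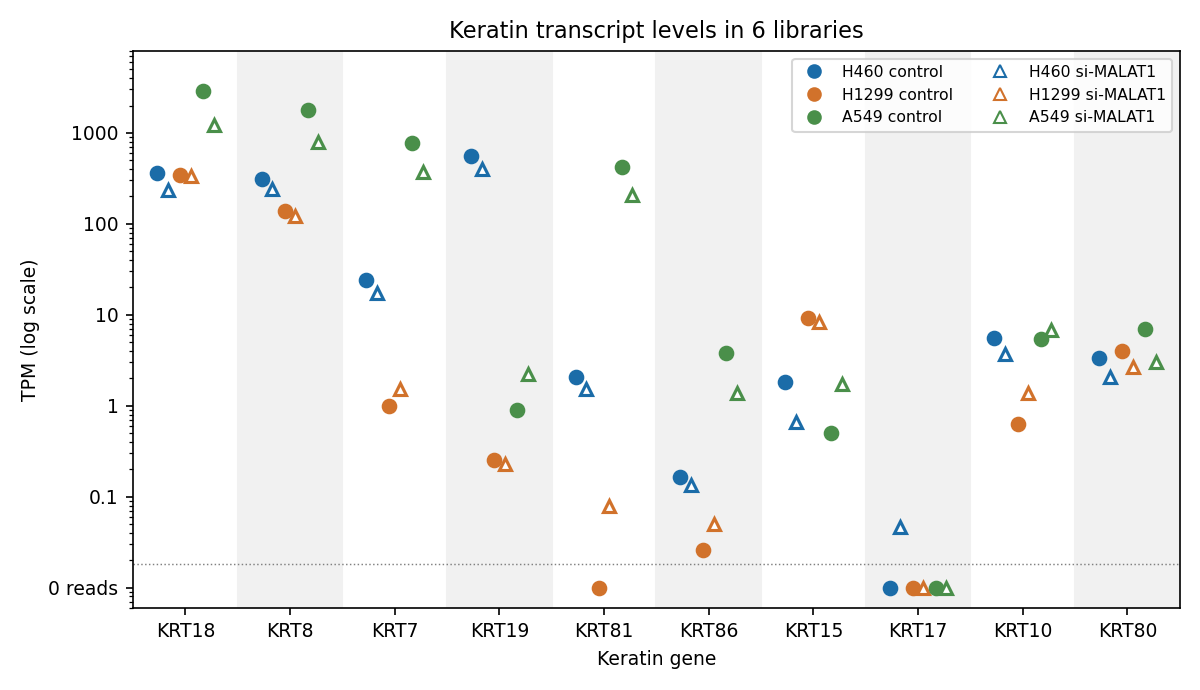
Transcript level (TPM, log scale) of the 10 keratin genes, with filled circles for control libraries, open triangles for si-MALAT1 libraries, and libraries with 0 reads below the dotted line. KRT7 runs from 0.987 to 781 TPM and KRT19 from 0.230 to 550 TPM over the lines, while KRT80 stays between 2.096 and 7.02 TPM.

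Levels were compared between lines with edgeR's quasi-likelihood test on the read counts, with treatment as a term. The spread is what the libraries of each line still differ by once the common treatment effect is removed, pooled over all 3 lines. It therefore includes unequal changes of the lines after si-MALAT1. Of the 9 keratin genes with enough reads (all but KRT17), 7 differed between H460 and H1299, where 50.7% of all genes tested did, 6 between H460 and A549, where 35.3% did, and 8 between H1299 and A549, where 47.2% did. KRT80 was the only one of the 9 not called in any of these 3 comparisons. The share of all genes called in none of them was not counted.

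The KRT80 log2 difference was -0.05 for H1299 minus H460 (95% interval -0.56 to 0.47; edgeR adjusted p = 0.884) and 0.52 for A549 minus H460 (-0.00030 to 1.04; adjusted p = 0.109). For A549 minus H1299 it was 0.57 (0.05 to 1.09; edgeR adjusted p = 0.0719, unadjusted p = 0.0373). These intervals leave room for a KRT80 level in A549 up to 1.09 log2 units above that of H1299. Adjusted p-values for KRT80 ranged from 0.0569 to 0.977 over the alternatives of the 3 comparisons.

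KRT19 had a log2 difference of -11.22 between H1299 and H460 (edgeR adjusted p = 4.06e-05) and -8.55 between A549 and H460 (0.000109), the widest gap of H460 from both other lines. KRT81 was higher in A549 than in H460 by 7.10 on the log2 scale (edgeR adjusted p = 0.000250) and KRT7 by 4.43 (0.000507). KRT86 exceeded its H460 level in A549 by 3.69 (edgeR adjusted p = 0.00346), KRT18 by 2.43 (0.00164), and KRT8 by 1.85 (0.00343). KRT18 was not called between H1299 and H460, at a log2 difference of -0.12 (95% interval -0.77 to 0.53, edgeR adjusted p = 0.735). The same held for KRT10 between A549 and H460, at 0.10 (-0.76 to 0.96; edgeR adjusted p = 0.877), and for KRT15, at -0.74 (-2.22 to 0.75; adjusted p = 0.392). KRT15 was higher in H1299 than in H460 by 2.31 (edgeR adjusted p = 0.0177) and KRT86 was lower by 2.28 (log2 difference -2.28, edgeR adjusted p = 0.0210). Both calls were lost without the H1299 control library (adjusted p = 0.0984 for KRT15 and 0.101 for KRT86), and that of KRT86 also without the H460 si-MALAT1 library (0.0663).

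**Figure D2:**
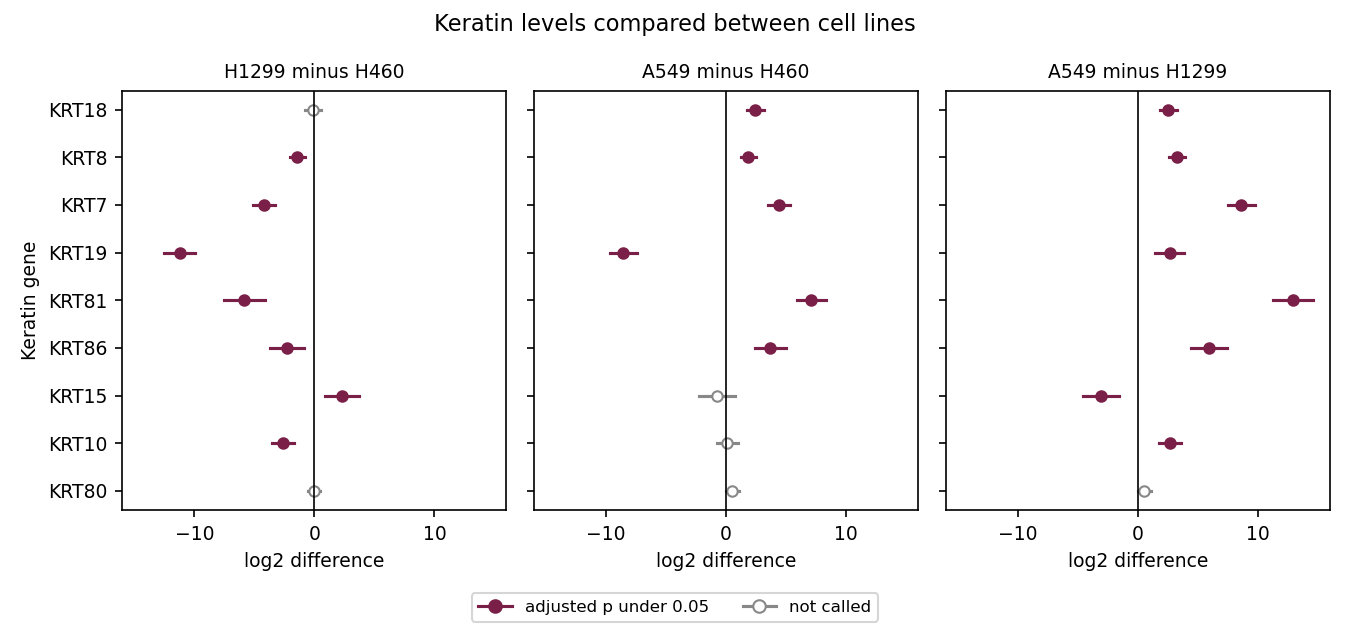
Log2 differences between lines from edgeR's quasi-likelihood fit with 95% intervals, 1 panel per pair of lines, with filled points at an adjusted p under 0.05. KRT80 is open in all 3 panels, and KRT81 and KRT19 reach the largest differences, 12.94 for A549 minus H1299 and -11.22 for H1299 minus H460. The first ranged from 11.52 to 18.05 over the alternatives, with 0 and 8 reads of KRT81 in H1299.

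After si-MALAT1, the abundant keratins of A549 were 2.04-fold to 2.34-fold lower, with smaller differences in H460 and mixed ones in H1299. Within a line there was 1 library per condition, so no test was possible, and the intervals are exact 95% Clopper-Pearson intervals for how a gene's reads divide between the libraries and cover counting error only. A bulk sample cannot tell apart fewer cells with a transcript from less transcript per cell. Fold changes are on the scale of log2(RLE-scaled count + 1), si-MALAT1 minus control, and a fold change of 1.5 served as the threshold.

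Of the 8 genes with reads in all 6 libraries, 5 were at least 1.5-fold lower in A549 (KRT7, KRT8, KRT18, KRT86, KRT80), where 11.4% of all genes were, and 2 were at least 1.5-fold higher (KRT15, KRT19), where 11.5% were. In H460, KRT15 alone was at least 1.5-fold lower against 10.3% of all genes, and 0 were higher against 9.5%. In H1299, KRT80 alone was lower against 11.4% of all genes, and KRT10 and KRT86 were higher against 11.7%. The median log2 fold change of the 8 was -1.10 in A549, -0.39 in H460, and -0.13 in H1299, and that of all 17834 genes was 0.01, 0.02, and 0.02. KRT81, which had 0 reads in a library, stands outside these counts, and its A549 value was past the threshold too.

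Among simple epithelial keratins in A549, KRT18 went from 144327 to 68068 reads, a log2 fold change of -1.23 (-1.24 to -1.22). In the same line KRT8 went from 113159 to 56171 reads (-1.16, -1.17 to -1.14) and KRT7 from 44716 to 23990 reads (-1.04, -1.07 to -1.02). In fold terms the control was higher by 2.34, 2.23, and 2.06 for KRT18, KRT8, and KRT7. In H460 the log2 fold changes were -0.48 for KRT18 (29912 to 20233 reads), -0.22 for KRT8 (32680 to 26580), and -0.35 for KRT7 (2376 to 1756). In H1299 they were -0.10 for KRT18 (27903 to 23857 reads), -0.22 for KRT8 (14592 to 11408), and 0.53 for KRT7 (scaled counts of 86.4 and 125). KRT8 and KRT18 were thus lower in every line, while KRT7 was lower in 2 of 3.

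In H460, where KRT19 was abundant, it went from 44567 to 33570 reads, a log2 fold change of -0.33 (-0.35 to -0.31). In A549 its few reads went from 44 to 121, a log2 fold change of 1.30 (0.81 to 1.85), and in H1299 from 21 to 17, with an interval of -1.19 to 0.82 that spans 0.

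The hair keratins were lower in A549 alongside the simple ones. KRT81 went from 28539 to 15492 reads (-1.03, -1.05 to -0.998) and KRT86 from 865 to 346 reads (-1.46, -1.65 to -1.29). In H460 neither moved beyond counting error, at -0.28 (-0.58 to 0.0014, 231 to 179 reads) for KRT81 and -0.14 (-0.69 to 0.41, 63 to 54 reads) for KRT86. In H1299 KRT81 went from 0 to 8 reads, for which the lower counting limit of the log2 fold change was 0.90, and KRT86 went from 10 to 17 reads (0.82, -0.31 to 2.19).

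KRT15 and KRT10 differed in direction between lines. In H460, KRT15 was lower, with 253 reads in the control and 105 after si-MALAT1 (-1.18, -1.53 to -0.85). In H1299, where it was highest, it had 1134 and 907 reads (-0.19, -0.32 to -0.06), and in A549 it was higher with 39 and 125 reads (1.52, 1.01 to 2.09). For KRT10 the H460 libraries had 689 and 482 reads (-0.43, -0.60 to -0.26). In the other lines it was higher after si-MALAT1, with 79 and 150 reads in H1299 (1.04, 0.65 to 1.47) and 411 and 571 in A549 (0.33, 0.14 to 0.52).

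KRT80 reads numbered 757 and 499 in the H460 pair of libraries, 908 and 527 in the H1299 pair, and 956 and 465 in the A549 pair. The control was therefore 1.43, 1.57, and 2.27 times the si-MALAT1 level after scaling, and the counting intervals of the log2 fold changes, -0.52 (-0.69 to -0.35), -0.65 (-0.81 to -0.50), and -1.18 (-1.35 to -1.02), did not span 0. Of the 8 genes, KRT8, KRT18, and KRT80 were lower in all 3 lines, where 18.8% of all genes were. KRT80 had the smallest spread over the lines of the 8, with a mean log2 fold change of -0.78 ± 0.35 (SD, n = 3), against -0.60 ± 0.58 for KRT18 and -0.53 ± 0.54 for KRT8. On the scale of log2(FPKM + 1) its H1299 value was -0.46, short of the threshold.

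**Figure D3:**
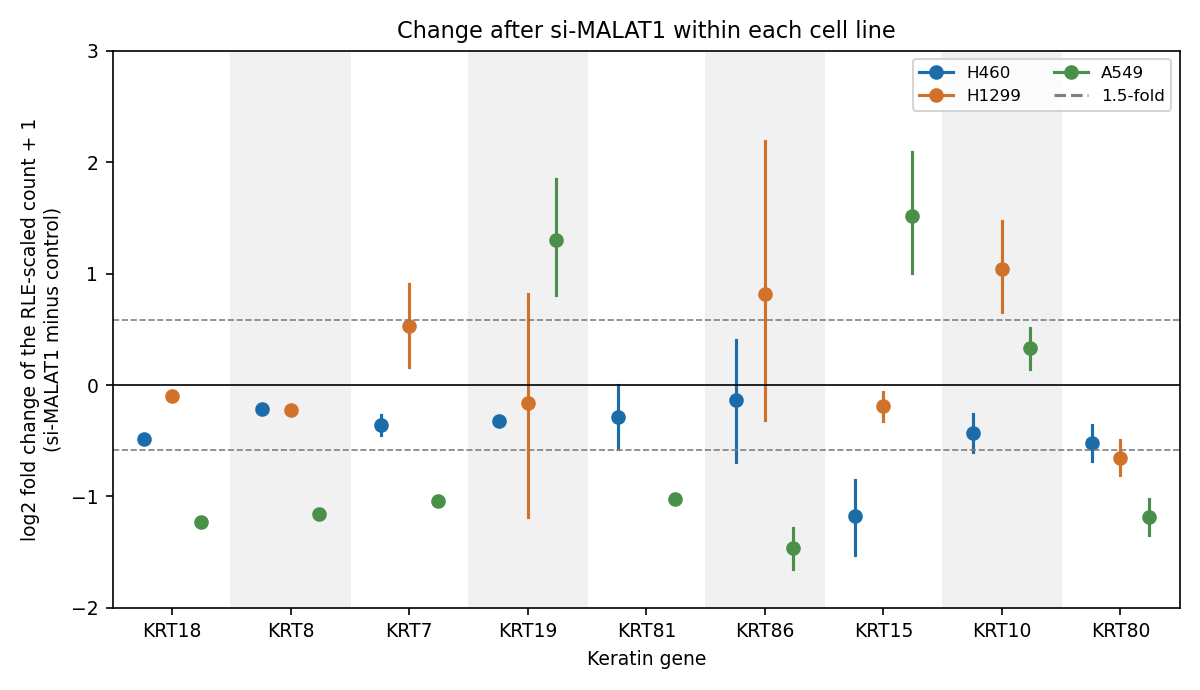
Log2 fold change of the RLE-scaled count + 1 (si-MALAT1 minus control) of 9 keratin genes in each line, with bars for the exact 95% counting interval (narrower than the point where none shows) and dashed lines at a fold change of 1.5. KRT81 in H1299 is left out because its control has 0 reads. KRT80 lies below 0 in all 3 lines at -0.52, -0.65, and -1.18, and the A549 points of KRT18, KRT8, KRT7, KRT81, and KRT86 lie between -1.03 and -1.46.

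The 3 lines were then joined in 1 edgeR quasi-likelihood fit that pairs both libraries of a line. Of the 9 genes tested, 0 passed an adjusted p of 0.05, while 0.00523% of all genes tested were called lower, MALAT1 alone. An unadjusted p under 0.05 was reached by 3 of the 9 and by 15% of all genes tested. The call of MALAT1 (adjusted p = 0.0381) was lost without the low-count filter (0.171), without the cell line block (1.00), without the H1299 pair (0.125), and without the A549 pair (0.275), and without the H460 pair 51 genes were called higher and 112 lower. KRT80 had a log2 difference of -0.80 (95% interval -1.22 to -0.38; edgeR adjusted p = 0.130, unadjusted p = 0.00323), with a lower level in 3 of 3 lines. KRT18 had -0.62 (-1.15 to -0.09; edgeR adjusted p = 0.277) and KRT8 -0.55 (-1.05 to -0.04; adjusted p = 0.304). The adjusted p of the other 6 genes ranged from 0.550 to 0.971. DESeq2 on the same design called 1 of the 9, KRT80, lower (log2 difference -0.79, adjusted p = 0.00861), where it called 3.02% of all genes lower, and its adjusted p was 0.0732 for KRT18 and 0.111 for KRT8. Over all alternatives the adjusted p of KRT80 ranged from 0.00861 to 1.00, and without the A549 pair its log2 difference was -0.60 (edgeR adjusted p = 0.822).

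A549 had a lower ratio of type I to type II transcripts than H460 and H1299, a difference that was not tested. Type I transcripts summed to 920 TPM and type II to 339 TPM in the H460 control, a ratio of 2.72, and the ratio was 2.43 after si-MALAT1. In H1299 the ratio was 2.47 in the control and 2.72 after si-MALAT1. A549 held 2924 TPM of type I and 2993 TPM of type II in the control, a ratio of 0.977, and 0.903 after si-MALAT1, with both sums lower. Within the basic pair, KRT18 over KRT8 was 1.17 and 0.974 in the H460 libraries, 2.48 and 2.73 in those of H1299, and 1.64 and 1.56 in those of A549. The step between control and si-MALAT1 was smaller in each line than the gap between H1299 and the other lines. Of the type II sum in the A549 control, KRT7 and KRT81 accounted for 781 and 423 TPM.

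**Figure D4:**
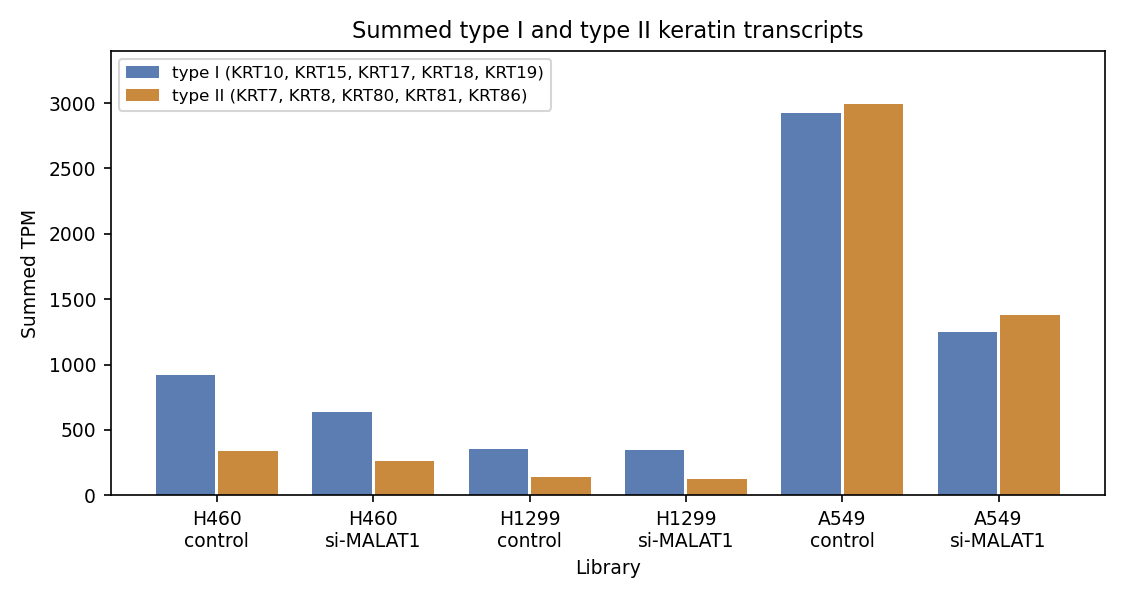
Summed TPM of the 5 type I and 5 type II keratin genes in each library, as bars from 0. The bars are nearly equal in A549 (2924 and 2993 TPM in the control, 1246 and 1380 TPM after si-MALAT1), and the type I bar is the taller one in H460 and H1299.

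Some keratin reads cannot be assigned with confidence. Of the 100-base windows of the longest KRT81 transcript, 30.3% also occur in another keratin gene, and 29.4% in KRT86. The share was 10.9% for KRT7, 9.26% for KRT8, 8.8% for KRT86, 2.80% for KRT18, and 0.353% for KRT17. It was 0% for KRT80, KRT10, KRT15, and KRT19. With 50-base windows the shares were higher, 44.6% for KRT81, 43.1% for KRT18, 42.1% for KRT8, 18.1% for KRT17, 15.25% for KRT7, and 12.4% for KRT86. At that length they were 1.79% for KRT19, 0.585% for KRT15, 0.41% for KRT80, and 0% for KRT10. KRT86 shares 8.43% of its 100-base windows with KRT81 and had 865 and 346 reads in A549, beside 28539 and 15492 of KRT81. How much of the KRT86 count comes from shared reads was not tested. KRT87P, a hair keratin pseudogene that overlaps KRT7 by 252 exon bases on the other strand, had 1546 reads in the A549 control, 918 after si-MALAT1, and 0 in the other 4 libraries. The sources used here do not state whether counting used the strand, so KRT7 and KRT87P, and KRT8 and KRT18 within their 135 shared bases, could exchange reads. KRT7-AS, which shares 221 exon bases with KRT7, had 64 and 52 reads in A549 and 0 elsewhere, and TMEM99, which shares 17 bases with KRT10, had 328 to 912 reads. METTL7AP1, MIR9898, and MIR6510 share 39 exon bases or fewer with KRT7, KRT8, and KRT15 and had 16 reads or fewer in every library.

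Processed copies of KRT8 and KRT18 had few reads beside their genes, except those of KRT8 in H1299. The 50 KRT8 pseudogenes together had 886 to 1443 reads, 0.981% to 12.6% of the KRT8 count. The highest shares, 9.67% and 12.6%, were those of the H1299 control and si-MALAT1 libraries. The 66 KRT18 pseudogenes had 0.136% to 1.47% of the KRT18 count. KRT8P3, the copy with the most 50-base windows in common with KRT8, went from 448 to 206 reads in A549, a log2 fold change of -1.26 beside -1.16 for KRT8. KRT8P12, KRT8P46, and KRT8P33 had A549 log2 fold changes of 0.07, 0.47, and -0.01, KRT8P39 and KRT8P4 of -0.60 and -0.63, and KRT18P31 of 0.99.

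Of the 45 other protein-coding keratin genes, 0 had reads in all 6 libraries, and 34 to 41 had none in either library of a line. The hair keratins KRT83 and KRT85 and the mucosal keratin KRT4 were found mainly in A549 and were lower there, at log2 fold changes of -1.12 (314 to 159 reads), -1.39 (182 to 76 reads), and -1.31 (129 to 57 reads). KRT83 also had 107 and 116 reads in H460 and an edgeR adjusted p of 0.659 in the test over the lines. KRT222, a keratin-like gene, went the other way in A549, from 63 to 177 reads (1.34, 0.92 to 1.78).

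Genes of the partners of keratin filaments had smaller median changes in A549 than the keratins, a difference that was not tested. Among 14 other intermediate filament genes, 9 had reads in all 6 libraries, and their median log2 fold change in A549 was -0.19 with 2 past 1.5-fold lower. VIM was at 0.17 in A549, LMNA (lamin A/C) at -0.08, LMNB1 at 0.23, and LMNB2 at -0.24. The 2 lower ones were NES (nestin), from 156 to 47 reads, and SYNM (synemin, which links intermediate filaments to adhesion sites), from 2182 to 1408 reads, both named after their values were seen. SYNM was lower in all 3 lines, at -0.53, -0.43, and -0.78, with an edgeR adjusted p of 0.114 and a DESeq2 adjusted p of 0.00181, and like KRT80 it was called in no comparison between lines.

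Of 14 desmosome and plakin genes, which anchor keratins at cell contacts, 11 had reads throughout, with median changes (log2) of -0.08 for H460, 0.17 for H1299, and -0.13 for A549, where 0 were past 1.5-fold. The cadherin DSG2 was at 0.03, 0.70, and 0.41, the plaque protein JUP at -0.21, 0.75, and -0.10, the cytolinker PLEC at -0.43, 0.27, and -0.40, and PERP at -0.44, 0.32, and -0.52 in H460, H1299, and A549. DSC3, with no reads in H1299 and named after its values were seen, was higher at 0.88 in H460 and 0.72 in A549 (DESeq2 adjusted p = 0.0134, edgeR adjusted p = 0.145). Among 8 hemidesmosome genes, which anchor keratins to the matrix, the 7 with reads throughout were all below 0 in H460, where 48.1% of all genes with reads throughout were below 0, with a median of -0.37, and had medians of 0.40 in H1299 and 0.01 in A549. Their most abundant members CD151 (-0.24, -0.10, -0.42), ITGA6 (-0.41, 0.52, 0.23), DST (-0.37, 0.51, 0.01), and LAMB3 (-0.86, -0.56, 0.38) had edgeR adjusted p-values of 0.360 to 0.953.

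Of 14 epithelial transcription factors, the 6 with reads throughout had medians of -0.13, 0.48, and 0.52 in H460, H1299, and A549. TP63, the factor of basal epithelium, was past 1.5-fold higher in each line at very low levels, with 2 and 18 reads in the H460 libraries, 2 and 5 in those of H1299, and 47 and 304 in those of A549 (edgeR adjusted p = 0.106). In H1299 the counting interval of its log2 fold change, -1.16 to 4.85, spanned 0. TP63 was named because it passed 1.5-fold the same way in each line, so that trait follows from the choice. KLF4 passed 1.5-fold in A549 (1.47) and was at 0.38 in H1299 and -0.30 in H460, and KLF5 (-0.42, 0.58, 0.40) and ZEB2 (-0.09, 0.92, 0.30) had edgeR adjusted p-values of 0.768 and 0.466. ELF3 was at 60.0 and 71.0 TPM in A549, 1.04 and 0.913 TPM in H460, and had 0 reads in H1299. EPCAM was higher in each line, at 1.33, 0.99, and 1.16 (edgeR adjusted p = 0.123, DESeq2 adjusted p = 0.0103). So was COL1A1, at 1.51, 2.02, and 0.67 (edgeR adjusted p = 0.136, DESeq2 adjusted p = 0.00355). The H1299 values rested on few reads, 23 and 43 for EPCAM and 38 and 144 for COL1A1. CDH1, CDH2, and CLDN7 had edgeR adjusted p-values of 0.434, 0.193, and 0.972, and DESeq2 called CDH2 higher (0.0315). Of the markers of other cell types, COL3A1 was at -0.12 in H460 and -0.24 in A549 and went from 0 to 22 reads in H1299, LUM at 0.15 and 0.19, and DCN at 1.12 in H460 and 0.55 in H1299, and the part of such cells in the keratin values was not tested.

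**Figure D5:**
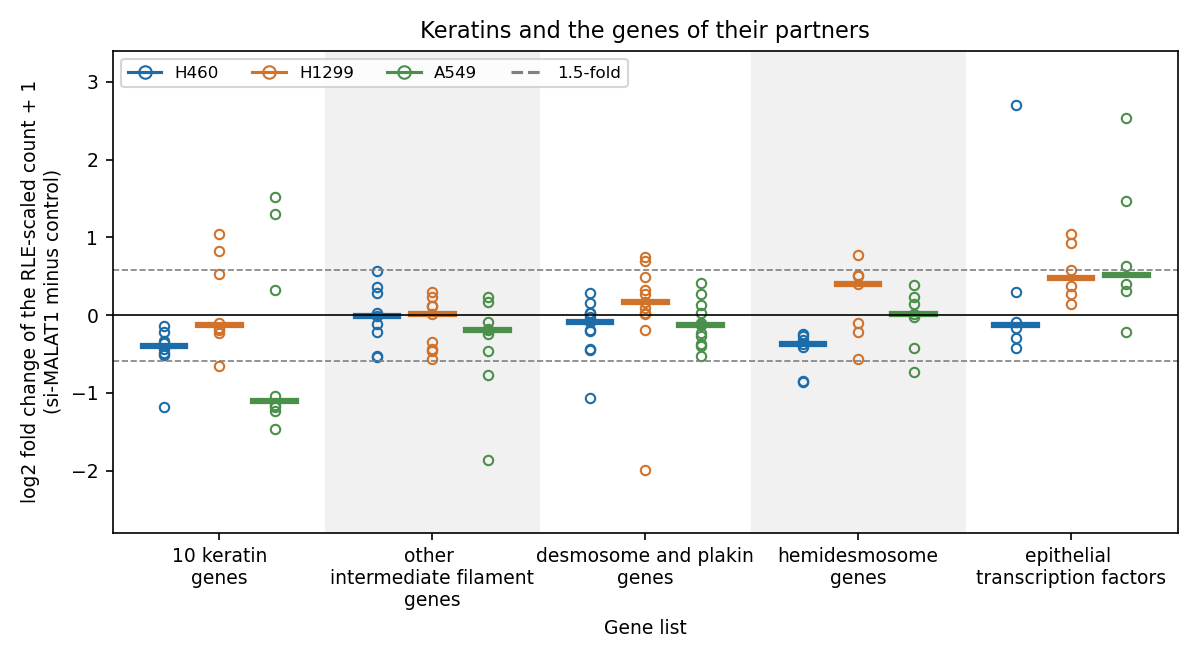
Log2 fold change of the RLE-scaled count + 1 (si-MALAT1 minus control) of the genes with reads in all 6 libraries in 5 gene lists, with circles for genes and thick lines for the median of a list in a line. The keratin median is -1.10 in A549, while those of the other 4 lists in A549 lie between -0.19 and 0.52.

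Over the 6 libraries, the genes with the pattern most like KRT80 were not keratins. Likeness was measured as the Euclidean distance between gene-centred log2 scaled counts, among 15902 genes with a mean of at least 50 reads, and it is a description over libraries that share lines and depth. CHMP5, a subunit of the ESCRT-III machinery that buds membranes, was nearest at 0.150, with log2 fold changes of -0.35, -0.62, and -1.17. GLOD4 (0.308), METTL16, an RNA methyltransferase (0.323), APPL2, an endosomal adaptor (0.406), and the pseudogene UBE2SP1 (0.409) followed. KRT18 was the nearest keratin at a distance of 2.28, with 66.8% of the genes nearer, and KRT8 stood at 2.71, KRT7 at 8.12, KRT19 at 11.97, and KRT81 at 12.91.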

How the data were processed

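Read counts, FPKM, and TPM of 6 libraries were used, 1 control and 1 si-MALAT1 library for each of H460, H1299, and A549, grouped by the labels. The authors made the deposited read counts (whole numbers, not normalized) and the deposited FPKM and TPM (scaled for length and depth) by trimming, HISAT 2.1.0 alignment to GRCh38, and StringTie on an NCBI annotation. The StringTie version differs between the methods and the submitters' processing notes, which name 1.3.4b. Libraries were stranded and depleted of ribosomal RNA. The table's 18 columns of other samples were not used.

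The keratin genes, gene lists, and tests were chosen with earlier results of these data known. Fold changes within a line used RLE-scaled counts plus 1 and the 17834 genes with no 0 in the 6 libraries. Counting intervals and the limit of 3 reads for a count of 0 cover counting error only. edgeR 4.0.16 (TMM, filterByExpr, Benjamini-Hochberg) was run over 19122 genes for si-MALAT1 with the cell line as block, since same-numbered libraries come from 1 line (their deviations correlated at 0.874 to 0.906), and over 21771 genes between lines. Samples are single cultures, 1 per line and condition, so the spread between like cultures was not measured. The spread behind the p-values comes from how unequally the lines differed between control and si-MALAT1. Both fits leave 2 residual degrees of freedom. DESeq2 1.42.0, other normalizations and filters, other scales, and leaving out libraries were the alternatives. The scripts were tested on simulated data.

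Besides the 10 genes, the text names genes of the lists and other keratins that passed 1.5-fold the same way in 3 lines, were called in the test over lines, or were among the 4 with the highest mean TPM of a list, keratin pseudogenes with a mean of at least 50 reads, genes overlapping a keratin exon, the 5 genes most like KRT80, and MALAT1. Promoter sequences are not reported here.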

Additional observations from a re-analysis of the deposited data

Results flagged for a closer look

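For 4 of the 8 keratin genes with reads in all 6 libraries, the log2 fold changes after si-MALAT1 pointed in opposite directions in a pair of lines, with counting intervals that did not span 0. KRT15 differed by 2.70 (A549 minus H460, 1.52 against -1.18), KRT19 by 1.63 (A549 minus H460, 1.30 against -0.33), KRT7 by 1.57 (H1299 minus A549, 0.53 against -1.04), and KRT10 by 1.48 (H1299 minus H460, 1.04 against -0.43). KRT81, left out for its control count of 0 in H1299, went from 0 to 8 reads there and had -1.03 in A549. These differences were not tested, because each line had 1 library per condition. How many of all genes had such opposite fold changes was not counted, so whether keratins stand out here is not known. The counting intervals cover counting error only. The values higher after si-MALAT1 rest on few reads, 39 and 125 for KRT15 and 44 and 121 for KRT19 in A549, 79 and 150 for KRT10 in H1299, and scaled counts of 86.4 and 125 for KRT7 in H1299.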

How the results depend on the processing

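In the si-MALAT1 test, 0 of 9 keratin genes were called with the cell line block, 0 without the replicate block, and 1 with DESeq2 (KRT80). Past 1.5-fold, log2(TPM + 1) gave 2 genes lower in H460, and log2(TPM + 1) and log2(FPKM + 1) gave 0 lower and 0 higher in H1299, where a pseudocount of 10 gave 1 higher. Without the filter on zeros 1 gene was higher in H460, KRT17 with 5 reads. Directions in the si-MALAT1 test turned for KRT19 without the replicate block (-0.34), and with DESeq2 for KRT81 (0.58) and KRT15 (0.0077). Leaving out 1 pair of libraries gave ranges of -0.71 to 0.024 for KRT7, -0.29 to 0.65 for KRT19, -0.77 to 0.49 for KRT81, -0.91 to 0.29 for KRT86, -0.67 to 0.50 for KRT15, and -0.060 to 0.65 for KRT10. KRT7, KRT19, KRT81, and KRT86 turned without the A549 pair. None of these genes was called. Between lines, leaving out 1 library gave -0.54 to 0.22 for KRT18 and -0.24 to 0.16 for KRT80 (H1299 minus H460), and -1.96 to 0.25 for KRT15 and -0.40 to 0.69 for KRT10 (A549 minus H460). KRT15 was called between A549 and H460 without the A549 si-MALAT1 library (adjusted p = 0.0378). No other library or setting changed a call between lines except the KRT15 and KRT86 calls described above. The causes were not tested.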
